A study of Mus musculus with 96 samples.

Results

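The genes described here are 36 genes of the synaptic vesicle release machinery, taken by name from a list and not by their values. All 36 were present among the 24054 genes of the count table. The data cover 96 neurons from the preoptic area of the mouse, the hypothalamic region that senses and regulates body temperature, and it was made to look for genes that mark neurons whose activity follows temperature. Each neuron was recorded in a brain slice with a patch-clamp electrode then drawn into a glass pipette, and libraries were made from it with Smart-seq2 and Nextera XT. All cells came from C57BL/6N mice 2 to 3 months old, with no other allele or agent in the labels, and the classes differ in the labelled response to temperature and in whether the cell was silent. There were 21 warm-sensitive cells, 5 cold-sensitive cells, 24 insensitive cells that were not silent (called insensitive cells below), 10 silent sensitive cells and 18 silent insensitive cells. Another 18 cells carried no class and were not compared. Since the labels tie no cell to an animal, slice or day, each class counts as 1 sample. No test was therefore made, and every difference below is a description of these cells. Intervals are exact 95% intervals and cover counting error only, taking cells (for shares) or counts (for summed levels) as independent. They leave out differences between animals and, for summed levels, between cells. Intervals that do not overlap therefore do not show that classes differ.

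Neurons release transmitter when a vesicle fuses with the membrane of the nerve ending. Fusion is driven by SNARE proteins, which zip together between vesicle and membrane, with a vesicle SNARE (synaptobrevin, Vamp1 and Vamp2) pairing with syntaxin (Stx1a) and Snap25 on the membrane. Synaptotagmins such as Syt1 sense the calcium that triggers fusion, and complexins hold the assembled SNAREs ready. Rab3 proteins and active zone scaffolds bring vesicles to the release site. The ATPase Nsf and its SNAP adaptors pull spent SNAREs apart, and dynamin, amphiphysin and endophilin recover the membrane. The proteins act mainly at nerve endings, whereas most of their RNA lies in the cell body.

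Total counts ran from 465167 to 3660726 per cell. Rn45s, the precursor of ribosomal RNA, took a median of 45.4% of the counts in insensitive and 67.7% in warm-sensitive cells, with the other classes between these values, so levels are given as CPM, that is, counts scaled to 1000000 counts outside Rn45s. Median counts outside Rn45s were 761928 in insensitive, 734507 in cold-sensitive, 415420 in silent sensitive, 362457 in silent insensitive and 314892 in warm-sensitive cells. A gene is called detected in a cell at 10 CPM or more. The summed level of 11 neuronal markers had class medians from 5391 to 7940 CPM, and all 11 had counts in every class. Markers of other cells were present too. The summed level of 10 microglial markers had a median of 718 CPM in insensitive cells, 6553 in cold-sensitive, 3399 in warm-sensitive, 2157 in silent sensitive and 2859 in silent insensitive ones, and the lowest and highest cells of the 5 classes lay at 6.19 and 53083 CPM. All 10 had counts in every class but the cold-sensitive, where Tmem119 was at 0. The summed level of 11 oligodendrocyte markers, of which 7 to 11 had counts in a class, had its highest median in silent insensitive cells, at 4379 CPM, followed by 2728 in the warm-sensitive class, 2516 in cold-sensitive, 2458 in silent sensitive and 1131 in insensitive cells, with single cells between 2.71 and 77762 CPM. The summed level of the 9 astrocyte markers had medians from 1738 to 2763 CPM. Single markers were uneven over the 96 cells. Aldoc was detected in 85 cells (median 1432 CPM), the next astrocyte marker, Slc1a2, in 49 (10.2 CPM) and the rarest, Aldh1l1, in 4. Among oligodendrocyte markers Mbp was detected in 83 cells (1272 CPM), the next, Mobp, in 51 (20.2 CPM) and the rarest, Mog, in 3. Microglial markers ran from 10 cells (Tmem119) to 60 (C1qb). Of the 5 endothelial markers, Cldn5 and Ly6c1 were at 0 in all cells, and the highest summed level was 83.6 CPM. These levels differed between classes along with depth, and their part in the differences given below was not tested.

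Snap25, the membrane SNARE anchored by fatty acids, led the list in level. Per kilobase of exon, which allows genes to be compared, its median over the 96 cells was 1152 CPM per kb, followed by the vesicle GTPase Rab3a with 616. Nsf had 144, the fast calcium sensor Syt1 117, Syt11 114 and synapsin 2, which ties vesicles to the cytoskeleton, 102 CPM per kb. The next members, from the SNAP adaptor Napa at 76.6 to synaptophysin (Syp) and dynamin 1 (Dnm1) at 36.8 and 36.7, also lay at percentiles from 84.0 to 88.5 of the eligible genes. Neighbours such as Syt1 and Syt11, or Syp and Dnm1, differed by far less than their spread over cells, which for nearly every member ran from under 10 CPM to over 100 CPM. A median of 0 CPM per kb was found for 8 members: Stx1a, Syt2, Syt7, Sv2b, Sv2c, Bsn, Rims1 and Unc13a.

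The members varied strongly from cell to cell. Of the 3456 values, 1 for each member and cell, 27.5% were 0, 17.3% lay above 0 but under 10 CPM, 13.5% from 10 to under 100 CPM and 41.7% at 100 CPM or more. Snap25 was detected in all 96 cells, with 15.9 CPM in the lowest, and reached 100 CPM in 90 of them. Syt1 reached 100 CPM in 81 cells and Rab3a in 79. By contrast Sv2c, a vesicle glycoprotein, was at 0 in 93 cells, and Unc13a, a vesicle priming factor, was at 0 in 69 and detected in 12. To compare classes, a gene was called eligible when it was detected in at least 25% of all 96 cells, whatever their class. This held for 3457 genes, among them 30 of the 36 members. Stx1a, Syt2, Syt7, Sv2b, Sv2c and Unc13a did not meet it and are given apart.

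**Figure D1:**
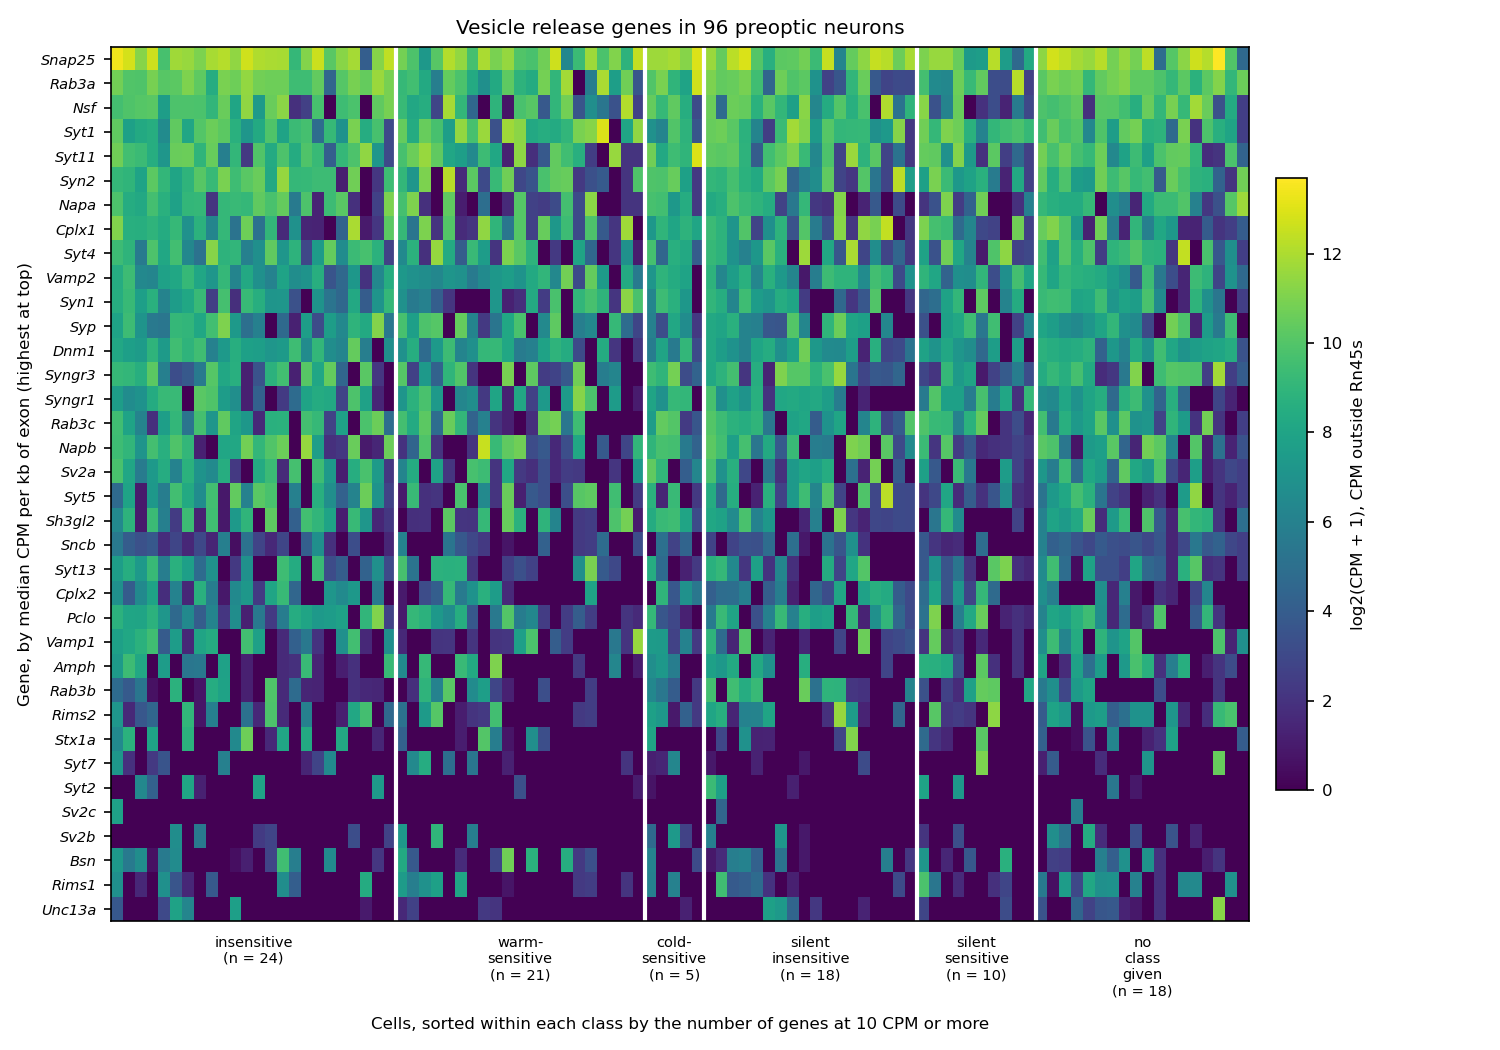
Level of each of the 36 genes (rows, ordered by median CPM per kb of exon) in each of the 96 cells (columns, grouped by class), colour giving log2(CPM + 1) with CPM over counts outside Rn45s. Snap25 is above 10 CPM in every cell, and within every class most other genes alternate between cells at or near 0 and cells at high level.

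Promoter sequences are shown for 4 members: the pair that held a cAMP response element, and the ATPase Nsf with its adaptor Napa, whose differences between classes are described below. They are the 250 bases before the RefSeq start on GRCm38.p6, whose coordinates are those of mm10, read 5′ to 3′ on the gene's strand. The GENCODE annotation used for the gene coordinates places some starts elsewhere. By it Sh3gl2 begins at 85205126, so its window lies within the gene. Napa begins at 16098458 and Syn1 at 20921004 on the minus strand, so their windows overlap the genes in part. Capitals mark every match, on either strand, to TGACGTCA (the cAMP response element), GGGCGG (the GC box) or TATAAA (the TATA box).
Syn1, chrX:20920919-20921168, minus strand: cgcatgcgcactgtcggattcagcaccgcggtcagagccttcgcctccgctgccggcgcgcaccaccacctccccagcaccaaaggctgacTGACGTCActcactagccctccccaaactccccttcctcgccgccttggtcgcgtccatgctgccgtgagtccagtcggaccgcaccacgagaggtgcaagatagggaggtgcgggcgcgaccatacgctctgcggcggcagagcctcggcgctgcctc
Sh3gl2, chr4:85205206-85205455, plus strand: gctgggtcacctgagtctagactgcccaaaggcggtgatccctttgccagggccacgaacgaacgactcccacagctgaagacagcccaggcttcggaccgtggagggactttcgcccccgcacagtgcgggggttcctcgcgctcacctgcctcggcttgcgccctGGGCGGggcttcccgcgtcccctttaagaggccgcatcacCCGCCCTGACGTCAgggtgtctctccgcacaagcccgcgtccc
Napa, chr7:16098330-16098579, plus strand: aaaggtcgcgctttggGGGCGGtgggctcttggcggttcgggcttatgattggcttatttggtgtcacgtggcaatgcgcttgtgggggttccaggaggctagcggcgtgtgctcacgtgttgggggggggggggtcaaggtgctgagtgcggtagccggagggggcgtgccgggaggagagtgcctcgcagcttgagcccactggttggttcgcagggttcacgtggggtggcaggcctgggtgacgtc
Nsf, chr11:103954057-103954306, minus strand: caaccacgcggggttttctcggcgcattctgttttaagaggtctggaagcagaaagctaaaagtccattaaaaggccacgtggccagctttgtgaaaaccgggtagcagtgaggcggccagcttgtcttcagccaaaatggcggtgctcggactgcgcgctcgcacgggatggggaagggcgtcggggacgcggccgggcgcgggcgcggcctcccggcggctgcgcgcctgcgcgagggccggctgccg
Promoters were found for 28 of the 36 members; Snap25, Vamp2, Syt4, Syt5, Syt7, Syt13, Syngr3 and Rims2 were not matched. The cAMP response element stood in 2 of these 28 (7.14%), Syn1 and Sh3gl2, against 1.77% of all 27025 genes with a promoter of that length. The GC box was found in 20 of the 28 (71.4%) against 35.4% of all genes, and in Sh3gl2 the 2 motifs touch. The TATA box was found in 2, Sv2b and Rab3b (7.14%), against 14.3%. The median GC content was 58.8% over the 35 member promoters, alternative starts included, and 52.4% over all promoters. The Nsf window holds none of the 3 motifs and the Napa window holds 1 GC box. A match is a run of letters and shows no binding.

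Among the SNAREs, Snap25 (chromosome 2, 136713453 to 136782428 on the plus strand, mm10) had medians of 3584 CPM in insensitive, 3321 in cold-sensitive, 1659 in silent insensitive, 1657 in warm-sensitive and 884 in silent sensitive cells. All classes overlapped. Vamp2, the synaptobrevin of most forebrain synapses, was detected in 86 of 96 cells, with class medians from 131 CPM (warm-sensitive) to 242 CPM (cold-sensitive). Vamp1, its paralog, was detected in 39 cells, of which 37 also had Vamp2 detected, and it was higher than Vamp2 per kilobase in 22 of the 96. Stx1a was detected in 23 cells, and no class had a median above 0.

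The synaptotagmins, not all of which sense calcium, divided into widely and rarely found genes. Syt1 was detected in 89 cells, Syt11, a member that does not bind calcium, in 80, and Syt4, found on dense-core vesicles, in 74. Syt5 was detected in 51 and Syt13 in 49 cells. Syt2, the fast sensor of many brainstem and spinal synapses, was detected in 10 cells, each of which also had Syt1 detected, and never exceeded Syt1 per kilobase. Syt7, a slow sensor, was detected in 13 cells. Of the complexins, Cplx1 was detected in 68 cells and Cplx2 in 50, with both in 40 and neither in 18, and Cplx1 was the higher per kilobase in 79 cells.

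Vesicle proteins were detected in most cells where their families have an abundant member. Syn2 was detected in 78, Syp in 73, Syn1 in 68, Syngr1 in 67 and Syngr3 in 65 cells. Sv2a, a vesicle glycoprotein, was detected in 57 cells, against 13 for Sv2b and 3 for Sv2c, and Sv2a was the higher of the Sv2a and Sv2b pair in 74 cells. Sncb, beta-synuclein, was detected in 31 cells and never exceeded 117 CPM. Among the proteins of the release site, Rab3a was detected in 88, Rab3c in 69 and Rab3b in 33 cells. Of the large scaffolds, Pclo (piccolo) was detected in 60 and Bsn (bassoon) in 26 cells, and of the RIM proteins Rims2 in 40 and Rims1 in 29. The membrane recovery genes Dnm1, Sh3gl2 (endophilin A1) and Amph (amphiphysin) were detected in 83, 51 and 37 cells.

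The number of members detected in a cell followed how many genes were detected in that cell at all. Insensitive cells had a median of 21.5 detected members (15 to 34), warm-sensitive cells 16 (9 to 25), cold-sensitive cells 25 (11 to 30), silent insensitive cells 19 (9 to 29) and silent sensitive cells 19 (7 to 24). With every cell thinned to 100000 counts outside Rn45s, which left out 1 warm-sensitive cell, the medians were 23, 20, 26, 21 and 21.5 in that order. The summed level of the members was close between classes, with medians of 14933, 13125, 16259, 14415 and 12671 CPM. Over the 96 cells, Spearman's rho between the members detected and the other eligible genes detected was 0.878 and Pearson's r was 0.864. Without the 2 farthest cells these were 0.870 and 0.855. Within classes, the 18 unclassified cells included, rho ran from 0.620 in the 10 silent sensitive to 0.956 in the unclassified cells. Both counts come from the same library and share its depth. Between pairs of the 30 eligible members, rho over the 96 cells had a median of 0.096 and ran from -0.209 to 0.410 over 435 pairs. Vamp2 and Syn1 were the highest pair, at 0.410. These are weak relations in values with many zeros.

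**Figure D2:**
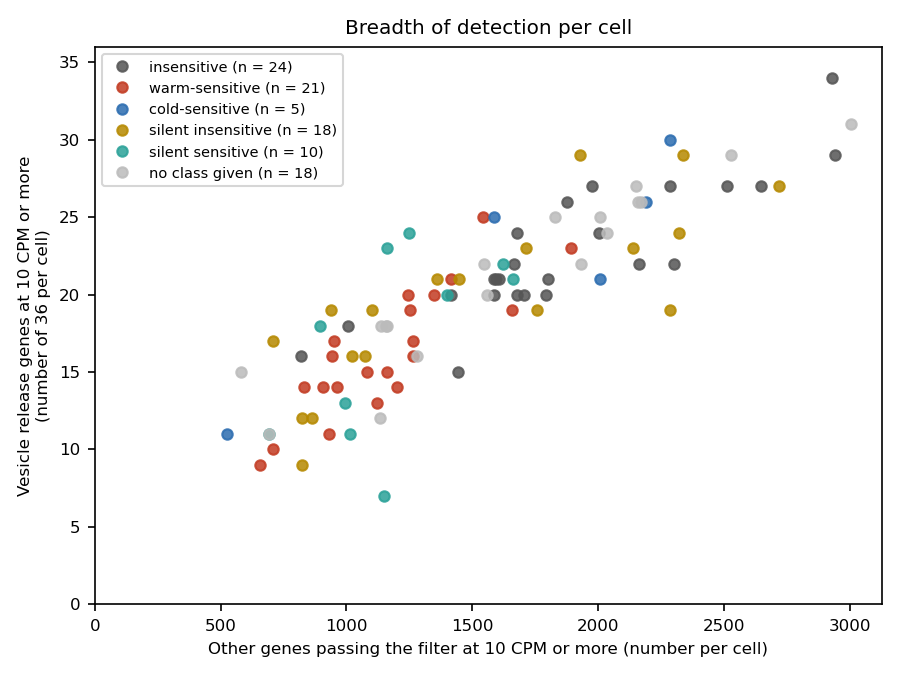
Number of the 36 genes detected at 10 CPM or more (vertical axis) against the number of other eligible genes detected (horizontal axis) in each of the 96 cells, coloured by class. Cells with more genes detected have more of these members detected, from 7 members in the lowest cell to 34 in the highest.

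The 4 comparisons asked which members differed between classes. The difference of a gene is the mean over cells of log2(CPM + 1) in the class named first minus that in the other, a scale that understates differences of low genes. The median eligible gene was itself lower in the class named first in all 4, so each difference is also given relative to the median gene. A member is called lower or higher when this relative difference is -1 or below, or 1 or above. Where the median gene is far below 0, a gene near 0 CPM in both classes is called higher although its own level hardly differs, so the difference as measured is given beside it. Of the comparisons, 3 use the same 24 insensitive cells and 2 use the same 18 silent insensitive cells, so the comparisons are not independent of each other.

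**Figure D3:**
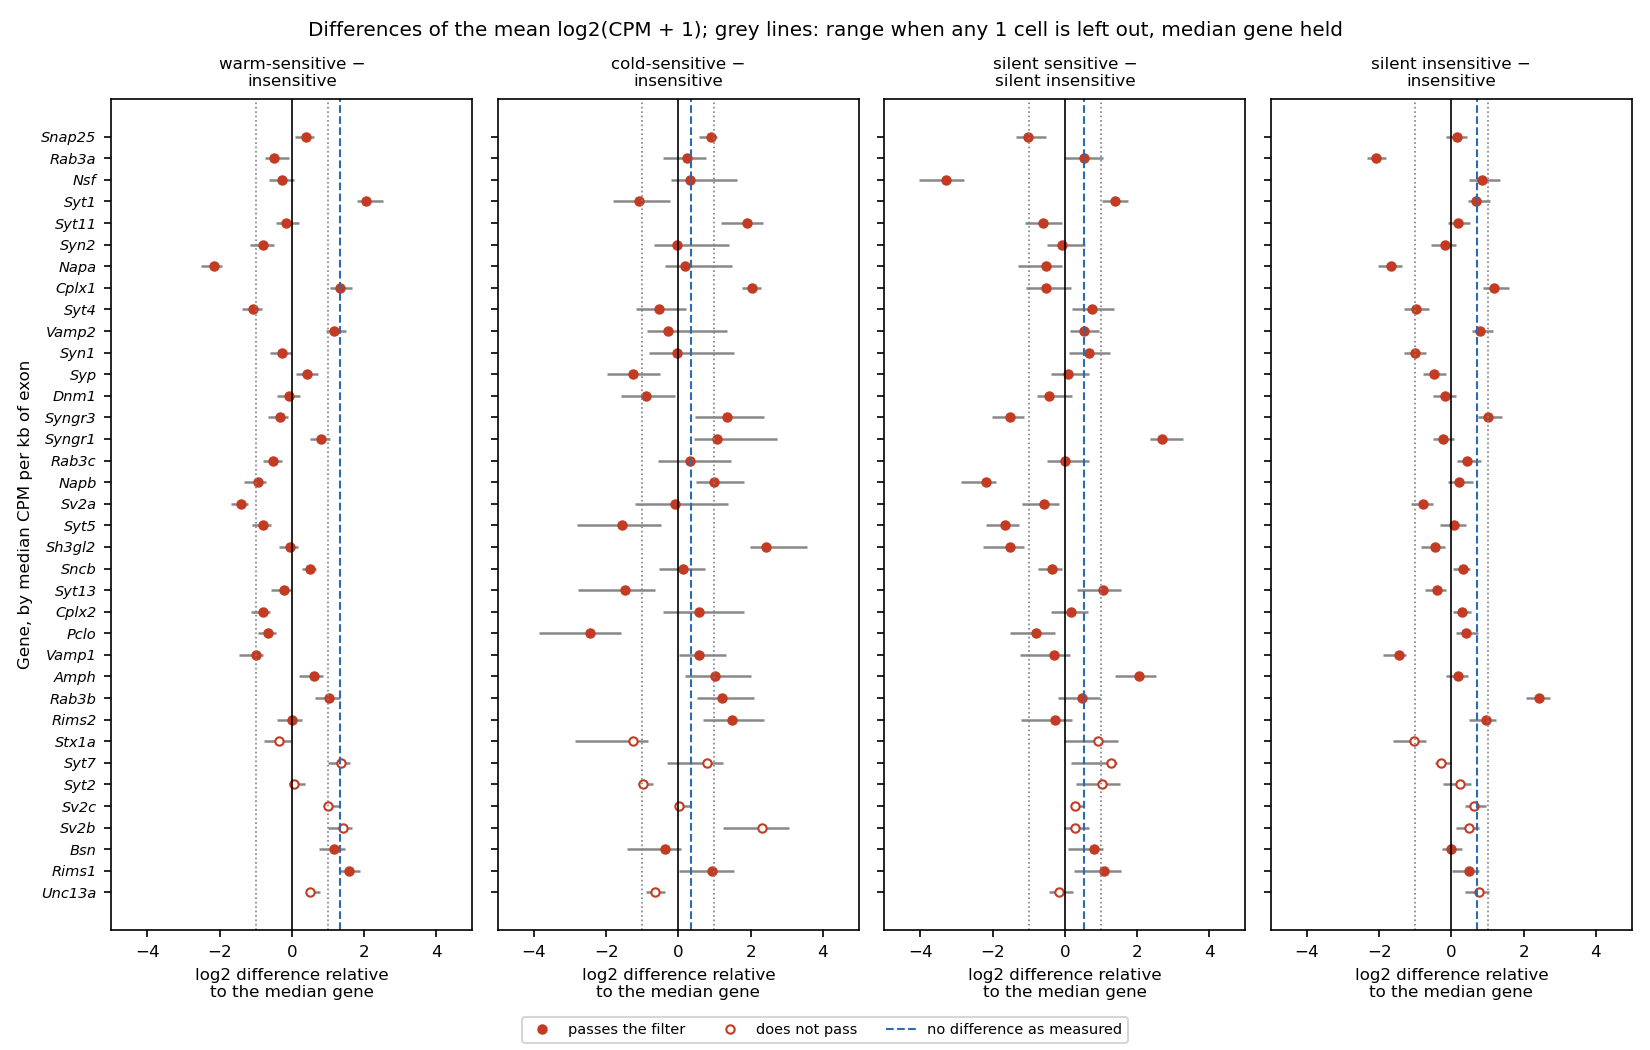
Difference of each of the 36 genes relative to the median gene (horizontal axis, log2) in the 4 comparisons, filled points for eligible and open points for other genes, with grey lines for the range when any 1 cell is left out and the median gene held. The dashed line is where the difference as measured is 0, and Napa in warm-sensitive, Nsf in silent sensitive and Rab3a in silent insensitive cells lie far to the left.

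In warm-sensitive cells, Napa (alpha-SNAP, chromosome 7, 16098458 to 16117975 on the plus strand), the adaptor that attaches Nsf to spent SNAREs, was the lowest member. It ran from 0 through a median of 4.44 to 2531 CPM in the 21 warm-sensitive cells, and from 0 through 549 to 2013 CPM in the 24 insensitive cells. The ranges overlapped, and the highest warm-sensitive cells, at 2531 and 2068 CPM, lay above every insensitive cell. Napa was detected in 33.3% of the warm-sensitive cells (14.6% to 57.0%) and 79.2% of the insensitive cells (57.8% to 92.9%). At 1 count or more the shares were 76.2% and 95.8%. With cells thinned to 100000 counts, where 10 CPM is 1 count, the shares were 55.0% and 83.3%. Its difference was -3.48 as measured and -2.15 relative to the median gene, and -0.46 relative to it when counts were summed over each class. The summed level was 364 CPM (353 to 377) in warm-sensitive and 570 CPM (560 to 580) in insensitive cells.

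Sv2a, the vesicle protein that binds the drug levetiracetam, was the next lowest. It had a median of 3.78 CPM (0 to 824) in warm-sensitive and 172 CPM (0 to 869) in insensitive cells, and was detected in 7 of 21 against 18 of 24. Its difference was -2.72 as measured, -1.40 relative to the median gene, and -0.80 with summed counts. Syt4 (-1.09 relative) and, barely, Vamp1 also met the rule, but with summed counts they were at 0.39 and 0.96. A share of 84.3% of all Vamp1 counts of the warm-sensitive class came from 1 cell at 3053 CPM. Napb, the brain form of the adaptor, was at -0.94, did not meet it, and was 0.30 with summed counts.

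At the other end stood Syt1 (chromosome 10, 108497650 to 109010982 on the minus strand), the calcium sensor of fast release. It had a median of 826 CPM (0 to 7910) in warm-sensitive and 391 CPM (7.18 to 1960) in insensitive cells. The highest warm-sensitive cells lay above every insensitive cell, and most others overlapped. Its difference was 0.72 as measured and 2.05 relative to the median gene, and with summed counts its level was 1786 CPM (1760 to 1813) against 601 CPM (591 to 612). Vamp2 and Cplx1 were at similar levels in both classes while the median gene was lower: as measured they differed by -0.17 and 0.01, and relative to the median gene by 1.15 and 1.34. Without the cells that had over 75% of their counts in Rn45s, 8 of them warm-sensitive, these were 0.46 and 0.44, under the rule, and with all counts as the total 0.75 and 0.94. Rims1 (1.59), Sv2b (1.41) and Syt7 (1.36) also met the rule, but all 3 had a median of 0 in both classes and differed by 0.27, 0.08 and 0.03 as measured. Snap25 (0.40) and Syp (0.42) did not meet it, nor did Stx1a (-0.35).

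By this rule 4 members were lower and 9 higher in warm-sensitive cells, among 17.2% and 17.9% of all eligible genes. Of the 30 eligible members, 4 were lower and 6 higher. As measured, 21 of the 36 members were lower by 1 or more and 0 were higher, where 61.8% and 1.82% of eligible genes were. The median member differed by -1.38 and the median gene by -1.33. The median member thus lay close to the median gene. The count of lower members was 2 without warm-sensitive cell 7 or without warm-sensitive cell 16.

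In the 5 cold-sensitive cells, Sh3gl2 (endophilin A1, which shapes and uncoats recovered vesicles) was the highest member. Its levels were 256, 680, 348, 7.66 and 610 CPM in cells 1 to 5, against a median of 116 CPM (0 to 1249) in insensitive cells. Of the 5, 4 lay above that median, and all lay within the insensitive range. Its difference was 2.09 as measured and 2.43 relative to the median gene. Cplx1 was at 465.6, 265, 148, 264 and 499 CPM, against a median of 228 CPM (0 to 3976). No cold-sensitive cell was near 0, whereas 6 of 24 insensitive cells lay under 10 CPM. The difference of 1.69 as measured (2.03 relative) thus comes with a summed level that was lower, 291 CPM (275 to 308) against 469 CPM (459 to 478), and the value with summed counts was -0.43. The cells' titles carry letters from A to H, whose meaning the labels do not give, and a fit with the letter as a term gave 0.86.

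Syt11 was at 504, 680, 1707, 7598 and 303 CPM, with a median of 582 CPM (3.82 to 2775) in insensitive cells. Cell 4 lay above all insensitive cells, and without it the relative difference of 1.90 was 0.58. Rims2 was 1.49 relative to the median gene, 0.95 without cell 3 and 2.31 without cell 2. Sv2b, which is not an eligible gene, was at 5.45, 160, 26.0, 0 and 0 CPM. Its relative difference was 2.32, and 1.16 without cell 2, which had the highest level. Pclo, the scaffold piccolo, was the lowest member. It was at 1.36, 6.53, 554, 0 and 11.8 CPM, against a median of 126 CPM (0 to 2154). Of the 5 cells, 4 lay under that median. Its difference was -2.77 as measured and -2.43 relative to the median gene, and 0.06 with summed counts, since 98.2% of the Pclo counts of the class came from cell 3. Syt5 (-1.57), Syt13 (-1.48), Syp (-1.26), Stx1a (-1.25) and Syt1 (-1.09) met the rule as well. Leaving out 1 cold-sensitive cell brought each of these 5 under it: Syt5 was -0.35 without cell 1 and -0.57 without cell 5, Syt13 -0.83 without cell 1 and -0.71 without cell 2, and Syp -0.47 without cell 5. Stx1a was -0.72, -0.91 and -0.57 without cells 1, 2 and 5, and Syt1 -0.78, -0.84 and -0.59 without cells 3, 4 and 5. Snap25 was at 2342, 3746, 3292, 8088 and 3321 CPM, with a relative difference of 0.90 that did not meet the rule, and Vamp2 was at -0.27.

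Counted over all members, 6 were lower and 9 higher in cold-sensitive cells, where 24.1% and 25.2% of eligible genes were. Of the 30 eligible members, 5 were lower and 8 higher. As measured the counts were 8 lower and 5 higher, where 32.8% and 18.6% of eligible genes were. The median member differed by -0.13 and the median gene by -0.34. Without cold-sensitive cell 5, 3 members were lower. Cell 4 stood apart in having 11 members and 524 other eligible genes detected, whereas the other 4 cells had 21 to 30 members and 1588 or more other genes. Its Snap25, Syt11 and Rab3a (6598 CPM) were the highest of the class, while Vamp2, Syn1 and Syngr1 were at 0.

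Among silent cells, Nsf (chromosome 11, 103821782 to 103954056 on the minus strand), the ATPase that takes SNARE complexes apart, was the lowest member in those labelled sensitive. It ran from 0 through a median of 9.21 to 2462 CPM in the 10 silent sensitive cells, and from 0 through 509 to 4315 CPM in the 18 silent insensitive cells. Of the silent sensitive cells 1 was at 0, 4 lay above 0 but under 10 CPM, 3 lay from 10 to under 100 CPM and 2 at 100 CPM or more, where 14 of the 18 silent insensitive cells were. Detection was 50% (18.7% to 81.3%) against 94.4% (72.7% to 99.9%). At 1 count or more it was 90% against 94.4%, and thinned to 100000 counts 80% against 94.4%. The difference was -3.83 as measured and -3.30 relative to the median gene, and it ran from -5.06 (within title letters) to -1.48 (summed counts) over the alternative settings.

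Napb, the brain form of the SNAP adaptor, was next. It had a median of 3.86 CPM (1.95 to 1095) in silent sensitive and 152 CPM (0 to 2133) in silent insensitive cells, with a difference of -2.70 as measured and -2.17 relative to the median gene. Together with Napa (-0.53), which did not meet the rule, the 3 SNARE disassembly genes had a median of -2.17, Napb's own value. The 7 synaptotagmins had one of 1.03, with 4 higher and 1 lower, where 20.2% and 21.1% of eligible genes were. These are the lowest and highest medians among the members grouped by function, and those of the other groups lay from -0.45 to 0.24. As measured the medians of the disassembly genes and the synaptotagmins were -2.70 and 0.51, and no synaptotagmin was higher by 1 or more. Of the 7, Syt2 and Syt7 are not eligible and were at 0 in 8 and 9 of the 10 silent sensitive cells. In the other comparisons the median of the disassembly genes relative to the median gene was -0.94 (warm-sensitive), 0.33 (cold-sensitive) and 0.22 (silent insensitive). Syt5 was -1.67: its median was 4.92 CPM against 48.8 CPM, and its highest silent sensitive cell had 270 CPM where the highest silent insensitive cell had 4941. The vesicle protein Syngr3 was -1.53 and Sh3gl2 -1.51, the latter -0.58 with summed counts and -0.72 with a pseudocount of 10. Snap25 ran from 24.4 through 884 to 4796 CPM in silent sensitive and from 70.9 through 1659 to 7606 CPM in silent insensitive cells. Its relative difference of -1.02 just met the rule and was under it in 10 of 13 alternative settings.

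Syngr1, the paralog of Syngr3, was the highest member in silent sensitive cells. It was detected in 9 of 10 cells with a median of 217 CPM (2.71 to 1012), against 11 of 18 with a median of 122 CPM (0 to 821), and differed by 2.16 as measured and 2.69 relative to the median gene. With summed counts this was 0.92. Amph was 2.04, with medians of 5.72 CPM (0 to 1192) and 0 CPM (0 to 383), 0.78 within title letters and 1.34 without silent sensitive cell 1. Syt1 was 1.39 relative to the median gene and 0.87 as measured. It was detected in all 10 silent sensitive cells, at 67.2 CPM or more, and in 16 of 18 silent insensitive cells, but its summed level was the lower, 848 CPM (823 to 874) against 1193 CPM (1171 to 1215), or -0.13. Syt7 (1.28) rested on cell 1, at 2048 CPM, which held all counts of Syt7 in the class, and was 0.14 without it. Rims1 was 1.10, and 0.28 without silent sensitive cell 2. Vamp2 (0.52), Stx1a (0.90) and Syp (0.10) did not meet the rule.

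In this comparison 6 members were lower and 7 higher, where 21.1% and 20.2% of eligible genes were, and of the 30 eligible members 6 were lower and 5 higher. As measured 11 were lower and 2 higher, where 35.7% and 10.1% of eligible genes were. The median member differed by -0.48 and the median gene by -0.52. The lower count was 10 without silent sensitive cell 5, and the higher count was 12 with silent sensitive cell 6 left out and 4 with silent insensitive cell 10 left out. Silent sensitive cell 6 had 7 members detected and the lowest summed level of the members, 2180 CPM.

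Relative to the median gene, silent insensitive cells differed from insensitive cells most in 2 members of the same family. Rab3a (chromosome 8, 70754679 to 70758677 on the plus strand), the main Rab GTPase of synaptic vesicles, was the lowest and Rab3b (chromosome 4, 108879063 to 108943324 on the plus strand) the highest. Rab3a ran from 5.50 through 621 to 2008 CPM in silent insensitive and from 21.6 through 1527 to 3111 CPM in insensitive cells. The ranges overlapped, and 4 of 18 silent insensitive cells lay under 10 CPM against 0 of 24, or 77.8% (52.4% to 93.6%) against 100% detected (85.8% to 100%). In the 10 silent sensitive cells 3 lay under 10 CPM as well, and in the 21 warm-sensitive cells 1 did. All 18 silent insensitive cells held at least 1 count of Rab3a. The difference was -2.79 as measured and -2.09 relative to the median gene, -1.28 without cells over 75% Rn45s (4 of them silent insensitive) and -0.43 with summed counts.

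Rab3b had a median of 18.2 CPM (0 to 1518) in silent insensitive and 1.72 CPM (0 to 954) in insensitive cells, and reached 100 CPM in 7 of 18 against 4 of 24. Its summed level was 475 CPM (461 to 489) against 73.5 CPM (69.8 to 77.3), with 41.3% of the counts of the silent insensitive class from 1 cell. The difference was 1.73 as measured, less in size than those of Napa (-2.38) and Vamp1 (-2.15), and 2.43 against the median gene, and it was 3.39 within title letters. In silent sensitive cells the summed level of Rab3b was 427 CPM (409 to 446), with 67.0% of it from 1 cell. Per kilobase Rab3b exceeded Rab3a in 3 of 18 silent insensitive, 2 of 10 silent sensitive and 0 of 24 insensitive cells.

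Napa was -1.68, with a median of 28.5 CPM (0 to 2276) against 549 CPM, and -0.94 within title letters. Over the alternative settings Napa ran from -2.26 to -0.52 and met the rule in 11 of 13. Vamp1 was -1.45 and was detected in 5 of 18 against 15 of 24 cells, but was 0.08 with summed counts. Stx1a (-1.04) and Syn1 (-1.01) lay at the edge of the rule, and leaving out any 1 of 18 cells put Stx1a, and any 1 of 23 cells Syn1, under it. Cplx1 (1.19) and Syngr3 (1.02) met the rule as higher and were 0.49 and 0.32 as measured. Without silent insensitive cell 4 Cplx1 was 0.79, and without cell 15 Syngr3 was 0.65. Rims2 (0.96), Nsf (0.85), Vamp2 (0.78), Syt1 (0.69), Snap25 (0.16) and Syp (-0.49) did not meet it. In all 5 members were lower and 3 higher, where 15.4% and 15.4% of eligible genes were, and of the 30 eligible members 4 and 3. As measured 10 were lower and 1 higher, where 38.5% and 4.66% of eligible genes were. The median member differed by -0.51 and the median gene by -0.70. The lower count was 3 without silent insensitive cells 10, 11 or 12 or insensitive cell 6, and the higher count was 1 without silent insensitive cell 15.

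Of 40 named differences past the rule over the 4 comparisons, 7 met it under all 13 alternative settings, as measured, and with any 1 cell left out. These were Sv2b and Sh3gl2 (higher) in cold-sensitive cells, Nsf, Napb, Syt5 and Syngr3 (lower) in silent sensitive cells, and Rab3b (higher) in silent insensitive cells. Of these, Sv2b is not an eligible gene. None of the 10 named in warm-sensitive cells did. There Napa and Sv2a were under the rule only with summed counts, and the members called higher differed by less than 1 as measured. Few genes could pass as higher there: 1.82% of eligible genes were higher by 1 or more as measured. The share was 18.6% in cold-sensitive, 10.1% in silent sensitive and 4.66% in silent insensitive cells. The 40 were picked largely as the extremes of these same values. How many of all eligible genes would meet every condition was not counted, so the 7 have no background beside them.

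Other genes of vesicle transport, fusion and recovery, 97 in a list, were described in the same way. Of these, 96 were in the table and 54 were eligible. In warm-sensitive cells 12 of the 54 were lower and 6 higher (17.2% and 17.9% of all eligible genes), and as measured 37 and 0 (61.8% and 1.82%). The lowest was Dnajc6 (auxilin, which uncoats clathrin-coated vesicles), detected in 23.8% against 83.3% of insensitive cells, at -3.05 relative to the median gene and -4.37 as measured. The highest was the vesicle carrier protein Scamp1, at 2.06 relative and 0.73 as measured. In cold-sensitive cells 13 were lower and 12 higher (24.1% and 25.2% of eligible genes), and as measured 19 and 10 (32.8% and 18.6%). Dnajc6 was again lowest, at -4.16 (-4.50 as measured) and detected in 1 of 5 cells, and Sh3glb1 (endophilin B1) highest, at 3.06 (2.72 as measured). In silent sensitive cells 5 were lower and 9 higher (21.1% and 20.2% of eligible genes), and as measured 18 and 2 (35.7% and 10.1%). Dnajc5 (cysteine string protein, a vesicle chaperone) was lowest, at -2.84 (-3.36 as measured) and detected in 20% against 61.1%, and the proton pump subunit Atp6v0a1 highest, at 3.52 (2.99 as measured) and detected in 80% against 38.9%. In silent insensitive cells 12 were lower and 6 higher (15.4% of eligible genes each way), and as measured 25 and 1 (38.5% and 4.66%). Slc17a6, the vesicular glutamate transporter of hypothalamic excitatory neurons, was lowest, at -2.74 (-3.44 as measured) and detected in 11.1% against 58.3%, and Ppfia4 (liprin alpha 4, an active zone scaffold) highest, at 3.04 (2.34 as measured).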

How the data were processed

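RNA of 96 single preoptic neurons was measured, 78 of them in 5 labelled classes. The authors deposited raw read counts, whole numbers for each gene in each cell. They also deposited a normalized signal table, in which the counts of a cell were scaled by a factor (0.177 to 2.49 over cells). FastQC, STAR, edgeR and mm10 are named in the submitters' processing notes. Not given in the sources used here: the counting step, its annotation and its use of strand; so paralogs and overlapping genes may share reads. No 2 cells held identical values.

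CPM was computed over counts outside Rn45s, because its share differed between classes. A difference is taken between class means of log2(CPM + 1). Detection was set at 10 CPM, eligibility at 25% of all cells, and the fold rule at 1 log2 relative to the median of 3457 eligible genes. Named members are the 5 lowest and 5 highest per comparison plus Snap25, Stx1a, Vamp2, Syt1 and Syp, and of the 96 pathway genes present the extremes. Intervals are Clopper-Pearson (shares) and Poisson (summed counts), at 95%. The members, lists and rules were chosen with earlier results of these data known. Simulated data served only to check the direction of changes put in and the median of unchanged genes. How often the rule calls an unchanged gene was not taken from them. Exon lengths and coordinates are from GENCODE M21 (mm10), promoters from RefSeq (GRCm38.p6). Alternatives changed the library total, pseudocount, filter, depth, summary over cells and the cells used, with edgeR 4.0.16 for TMM sizes and DESeq2 1.42.0 for size factors, in R 4.3.3 and Python 3.11.15. Results of some listed marker genes are given only as sums.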

Additional observations from a re-analysis of the deposited data

Results flagged for a closer look

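Of 70 pairs of a member and a class of 5 or 10 cells, 12 had a cell whose gap to the nearest other cell was large against the range of the class (Dixon's 95% limit). For normally distributed values chance flags about 1 in 20 such groups, but 27.5% of all values of the members are 0, so that rate does not apply here. A class with a single cell above 0 is always flagged, which was the case for Stx1a, Syt2 and Unc13a in cold-sensitive and Syt7 in silent sensitive cells. No explanation was tested.

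In the cold-sensitive class, cell 3 was highest for Stx1a, at 267 CPM, with the other 4 cells at 0, and for Syt2, at 0.666 CPM. Cell 2 was highest for Syt7, at 75.6 CPM, and cell 1 for Unc13a, at 1.36 CPM. Cell 4 was lowest for 4 members, with Vamp2 and Syngr1 at 0 and Nsf and Sh3gl2 at 7.66 CPM.

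In the silent sensitive class, cell 1 was highest for Stx1a, at 1146 CPM, and for Syt7, at 2048 CPM, and lowest for Syt1, at 67.2 CPM. Cell 5 was highest for Vamp1, at 1378 CPM, with the next cell at 4.33 CPM.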

How the results depend on the processing

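No paired analysis was possible because the replicate numbers follow accession order and pair no cells. Taken relative to the median gene, the median difference of the members shifted past the limit set for this check in 1 alternative. It was -1.12 in warm-sensitive cells without a filter on low genes. The as-measured alternative was not part of this check. There the median member was at -1.38 in warm-sensitive and -0.51 in silent insensitive cells, against -0.05 and 0.18 relative to the median gene. In all 4 comparisons the 2 forms differ by the median gene's own difference. In warm-sensitive cells the members lower and higher by the fold rule were 21 and 0 without the filter and, in an alternative chosen after seeing the data, 21 and 0 as measured. The lower count was 2 with DESeq2 size factors and with a stricter filter and 8 when thinned, and the higher count 1 with a pseudocount of 10 and 4 with summed counts. In cold-sensitive cells the higher count was 4 with a pseudocount of 10, 5 with summed counts and 5 as measured. In silent sensitive cells the higher count was 4 with all counts as the total, 4 with a pseudocount of 10 and 2 without the filter. The counts there were 10 lower and 3 higher within title letters and 11 and 2 as measured, and 11 were higher without cells over 75% Rn45s. In silent insensitive cells, the lower count was 2 with a pseudocount of 10, 9 without the filter, 3 with the stricter filter and 10 as measured. The higher count was 1 with all counts as the total, with a pseudocount of 10, without the filter, when thinned, without cells over 75% Rn45s and as measured, 5 with DESeq2 size factors and within title letters, and 7 with a pseudocount of 0.1.

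Leaving out 1 cell at a time gave 2 to 6 lower and 6 to 9 higher members in warm-sensitive cells, 3 to 9 and 7 to 13 in cold-sensitive, 5 to 10 and 4 to 12 in silent sensitive and 3 to 7 and 1 to 4 in silent insensitive cells. The median relative difference ran from -0.16 to 0.079, -0.024 to 0.55, -0.18 to 0.29 and 0.0057 to 0.34 in that order. Among named values past the fold rule, summed counts reversed 6: Syt4 (0.39) and Vamp1 (0.96) in warm-sensitive, Pclo (0.057) and Cplx1 (-0.43) in cold-sensitive, Syt1 (-0.13) in silent sensitive and Vamp1 (0.079) in silent insensitive cells. Values that had not met the rule could change sign too, such as Napb in warm-sensitive cells, from -0.94 to 0.30. The cause of these shifts was not tested. With 5 to 24 cells per class, and as few as 73702 counts outside Rn45s in a cell, a member at 0 may lie below detection.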

Other observations

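The 18 cells without a class are given as values only. They had a median of 22 members detected (11 to 31) and a summed member level with a median of 14333 CPM (6366 to 25399). Snap25 ran from 24.4 through 2991 to 13197 CPM. Rab3a lay between 426 and 2309 CPM, with a median of 1249 CPM, so none of these cells was among those under 10 CPM. Nsf was detected in 15 of the 18 cells, with a median of 852 CPM, Syt1 in 16 with 583 CPM, and Napa in 14 with 340 CPM. Rab3b was detected in 4 cells and had a median of 0. Rims1 was detected in 9 of these cells and Rims2 in 12. Unc13a, the priming factor, was detected in 5, and 90.0% of its counts in these cells came from 1 cell at 2480 CPM, the highest value of this gene in the series. The summed level of the 10 microglial markers had a median of 74.5 CPM (3.07 to 13310).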
